A study of Mus musculus with 31 samples.

Results

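This account follows 9 genes of the mouse X chromosome that lie beside sites where binding of BRG1 was listed as restored on the inactive X after deletion of Xist: Bgn, Haus7, Flna, G6pdx, Ikbkg, Las1l, Tbl1x, Pls3 and Acsl4. They were chosen by the authors' list of restored BRG1 sites (named XiRestored), for a site close to a start or in the gene body, with earlier results of these data known. A script took a site for a gene where it overlapped the body or lay within 10 kb of an annotated start. By that rule 41 of 1058 X-linked gene symbols had a site, and all 9 genes were among them. The sites are therefore given as a description, with no test.

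In female cells 1 of the X chromosomes is kept silent, and Xist, a long noncoding RNA made from that chromosome and spread along it, starts the silencing. BRG1, encoded by Smarca4, is an ATPase of the SWI/SNF complexes, which slide and evict nucleosomes and so open chromatin at promoters and enhancers. The series title poses the question of whether Xist RNA keeps BRG1 off the inactive X. The RNA of these genes bears on a narrower point, namely what was measured of their expression, in total and by parental allele, when Xist was missing.

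RNA-seq was run on differentiated female dermal fibroblasts of a CAST/Ei x 129/Sv/Jae hybrid in 3 groups of 2 libraries each. WT cells kept Xist, and lines 1 and 2 (XaWT XiΔXist and XaWT XiΔXist #2 in the labels) carried a deletion of Xist on the inactive X with an untouched active X. Each group is 1 cell line grown without treatment, so a line and its deletion cannot be told apart. The BRG1 site lists are tied by the labels to WT and line 1, and the accessibility lists to those cells and to WT embryonic fibroblasts, so restored sites of line 2 were not measured in these lists. The hybrid lets reads over differing bases be assigned to a mus or a cas allele. The labels do not say which parental X is the inactive one, and mus reads were the minor share in every library (5.46 to 7.25% of the allele reads of 205 X-linked genes).

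Depth was 3.81 to 7.07 M counts per library (M, 1e+06), and the replicate numbered 1 was the shallower in each group. Xist had 633 and 429 CPM (counts scaled to 1e+06 per library, TMM-normalised) in the WT libraries, 1.08 and 0.273 in those of line 1 and 0.969 and 0.282 in those of line 2, so the libraries matched their labels. Smarca4 had 600 and 498 CPM in the WT libraries, 526 and 418 in those of line 1 and 559 and 465 in those of line 2, and neither line was called against WT (adjusted p = 0.526 and 0.914, edgeR's quasi-likelihood test). All 10 fibroblast markers listed were above 10 CPM in every library, with summed levels from 4882 to 7321 CPM. For marker lists CPM is scaled to library totals without TMM. Lists of other cell types were low but not equal: the 7 keratinocyte and epithelial markers summed to 68.7 and 96.1 CPM in the WT libraries, 2.36 and 1.84 in those of line 1 and 23.1 and 27.3 in those of line 2, with Krt5, Krt14, Epcam and Cdh1 under 1 CPM in every library. The 6 melanocyte and Schwann markers summed to 17.5 and 11.9, 54.6 and 57.3, and 8.34 and 6.75 CPM in the same order, and the leukocyte, endothelial, adipocyte and muscle lists stayed between 0.283 and 40.2 CPM. The part of these cells in the results below was not tested.

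The 9 genes held 39 of the 189 restored BRG1 sites (20.6%), with a median width of 1059 bases against 843 over the whole list. Of the 39, 29 lay in a gene body and 10 lay upstream only, and each of the 9 genes had at least 1 in its body. Pls3 had 13 sites, Tbl1x 7, Haus7 6, Bgn and Acsl4 4 each, Las1l 3, and Flna, G6pdx and Ikbkg 1 each. The median was 4 sites a gene, against 1 for the other 32 genes that met the rule, whose most was 14, at Msn. These counts take no account of gene length. The bodies of Pls3 and Tbl1x span 89.5 and 149.0 kb, and the other 32 include the microRNA genes Mir221 and Mir222. G6pdx and Ikbkg share their only site, at X:74424220-74424762 on mm10, because the 2 genes overlap on opposite strands.

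**Figure D1:**
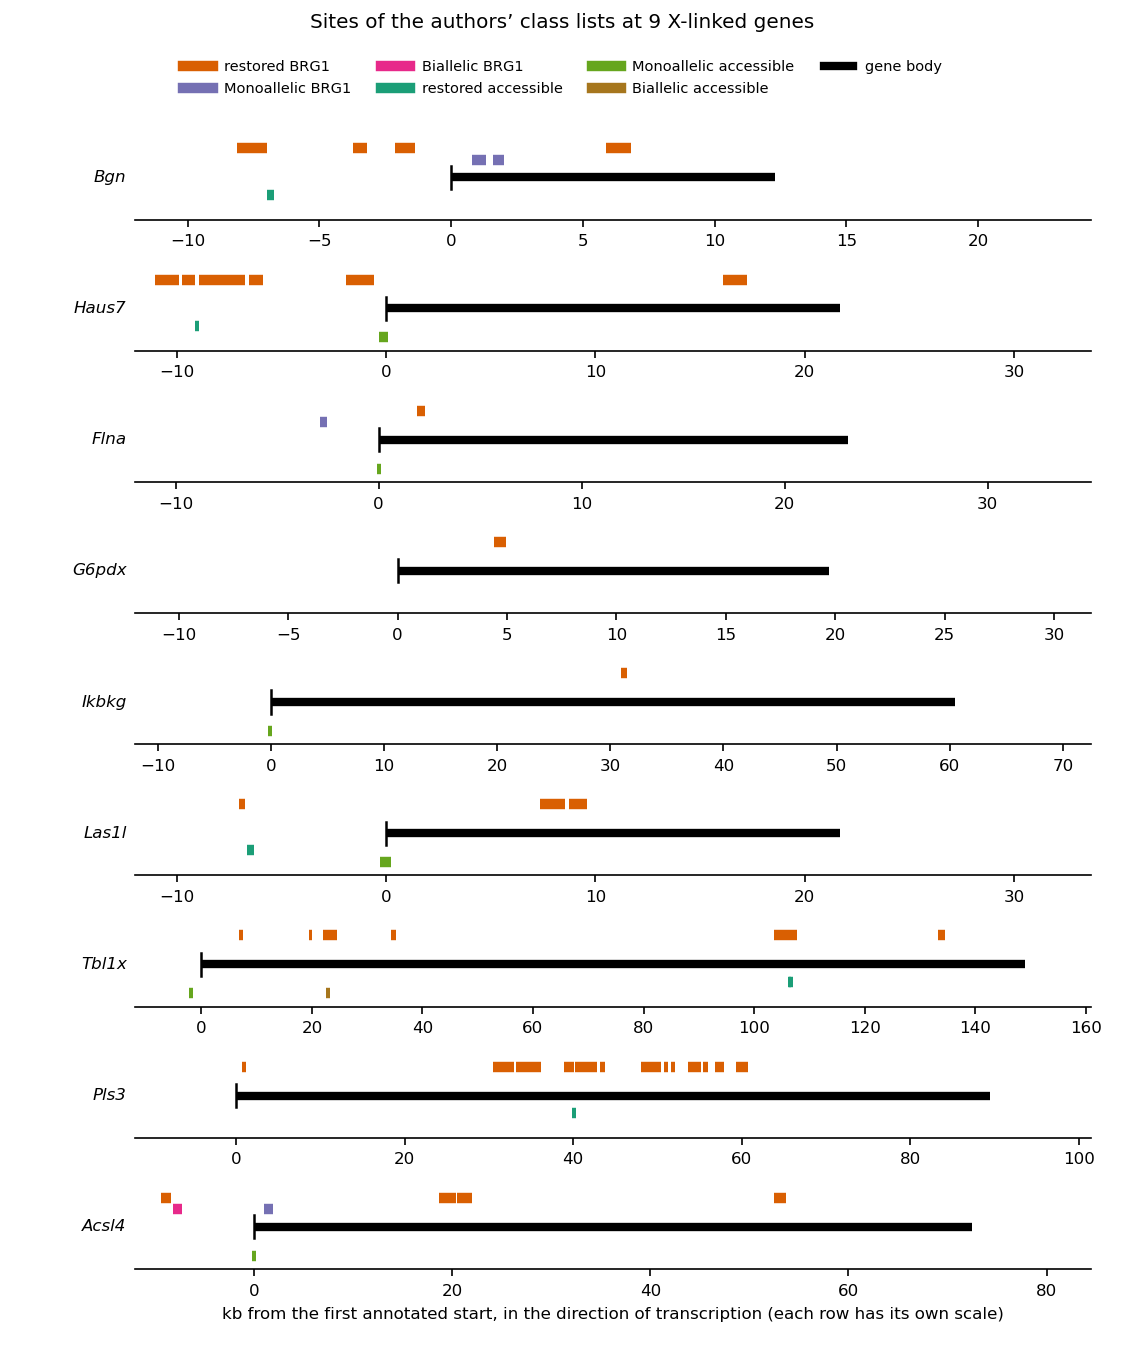
Sites of the authors' class lists along each gene, in kb from the first annotated start in the direction of transcription, with a scale of its own for each gene; the black bar is the body, BRG1 sites are drawn above it and accessible sites below it. Restored BRG1 sites lie upstream in Bgn, Haus7, Las1l and Acsl4, and 13 lie in the body of Pls3.

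Bgn and Haus7 have restored sites on the stretch between them. They are transcribed away from each other from starts at X:73483601 and X:73459029, and the 24.6 kb between them held 8 restored BRG1 sites, 2 restored accessible sites and no Monoallelic BRG1 site. At its edge, 1 Monoallelic accessible site lay across the Haus7 start. The nearest to Haus7 was X:73459587-73460948, 558 bases upstream of its start, and the nearest to Bgn was X:73481458-73482212, 1389 bases upstream. The 10 kb limit mattered here: the farthest site taken for Haus7 was 9889 bases from its start, and the nearest left out for Bgn was 13512 bases away. The Pls3 sites ran from X:75814408 to X:75844672, apart from 1 of 185 bases at X:75874194-75874378 near the upstream starts. In Tbl1x the sites were spread over the body, from 7211 to 133921 bases past the start by their centres, and the widest covered 4057 bases (X:77614899-77618955). Acsl4 had 3 sites in its body and 1 upstream (X:142398924-142399870), Las1l had 2 in its body and 1 upstream (X:95963709-95963981), and the Flna site was X:74244250-74244661, 1873 bases past its start. Whether these body sites fall in exons or introns was not analysed here.

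Few of the restored BRG1 sites of these genes overlapped a restored accessible site, and that accessibility list is short (37 sites, 10.9 kb in all). The same share over all 189 restored BRG1 sites was not computed. Of the 39, 3 overlapped a site of the restored accessibility list, in Tbl1x, in Pls3 and upstream of Bgn, and 4 overlapped an accessible site of any class. A restored accessible site lay 15 bases from a Haus7 site and 108 bases from a Las1l site. A promoter window overlapped a Monoallelic accessible site in 5 of the 9 genes (Haus7, Flna, Ikbkg, Las1l and Acsl4). Of 1223 X-linked promoter windows 175 did (14.31%). That share counts windows, not genes, and takes in genes with or without expression here. None of the 9 genes' windows overlapped a Monoallelic BRG1 site, and 17 of the 1223 windows (1.39%) did.

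Annotated starts inside restored BRG1 sites were rare, and both cases on the X were internal starts of these genes. Of 189 sites, 2 held an annotated start (1.1%), beside 5 of 887 Monoallelic BRG1 sites (0.6%) and 0 of 60 Biallelic BRG1 sites. Starts were thus rare in every BRG1 list. In the other assay, 142 of 356 Monoallelic accessible sites held one (39.9%). The starts inside the 2 restored sites were an internal start of Ikbkg at X:74424612 and 2 neighbouring internal starts of Pls3 at X:75843021 and X:75843063. The RefSeq promoter table (GRCm38.p6, the assembly of mm10) held 14 windows for the 9 genes, each from 250 bases before a start to 50 after it. Of 1223 windows on the X, only 2 touched a restored site, those of the starts at X:74424612 and X:75843021. They are shown beside the first window of the same gene because the contrast in base composition is visible in the letters. Capitals mark TGANTCA, the palindrome known as the AP-1 motif, and GGGCGG on either strand, known as the GC box. The 4 windows are, in order, Ikbkg internal (X:74424362-74424661, plus strand), Ikbkg first (X:74393041-74393340, plus strand), Pls3 internal (X:75842972-75843271, minus strand) and Pls3 first (X:75875133-75875432, minus strand).
Ikbkg internal: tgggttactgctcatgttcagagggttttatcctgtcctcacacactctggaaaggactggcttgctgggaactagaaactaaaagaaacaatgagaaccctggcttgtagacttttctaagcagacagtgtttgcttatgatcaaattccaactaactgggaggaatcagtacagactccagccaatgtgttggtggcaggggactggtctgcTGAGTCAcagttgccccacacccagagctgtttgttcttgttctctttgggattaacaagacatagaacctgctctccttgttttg
Ikbkg first: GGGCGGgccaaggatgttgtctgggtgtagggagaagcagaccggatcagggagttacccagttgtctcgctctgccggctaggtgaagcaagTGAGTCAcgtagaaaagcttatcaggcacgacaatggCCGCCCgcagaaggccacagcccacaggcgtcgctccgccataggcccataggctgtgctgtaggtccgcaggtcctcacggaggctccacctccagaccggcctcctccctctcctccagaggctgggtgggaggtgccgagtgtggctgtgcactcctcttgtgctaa
Pls3 internal: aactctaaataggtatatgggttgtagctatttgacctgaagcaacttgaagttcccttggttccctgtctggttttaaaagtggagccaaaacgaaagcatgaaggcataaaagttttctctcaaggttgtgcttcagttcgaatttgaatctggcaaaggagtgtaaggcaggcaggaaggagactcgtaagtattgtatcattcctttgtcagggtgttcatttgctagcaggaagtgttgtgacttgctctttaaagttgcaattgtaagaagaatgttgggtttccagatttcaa
Pls3 first: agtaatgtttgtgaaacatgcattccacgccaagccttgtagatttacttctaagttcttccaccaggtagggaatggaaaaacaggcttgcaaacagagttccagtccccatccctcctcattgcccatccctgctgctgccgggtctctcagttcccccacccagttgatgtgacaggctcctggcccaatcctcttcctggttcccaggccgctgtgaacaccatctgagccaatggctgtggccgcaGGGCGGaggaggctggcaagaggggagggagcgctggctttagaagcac

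The Ikbkg internal window shown had 0 CG dinucleotides and the Pls3 internal window 3. The other 12 windows of the 9 genes had 6 to 43. They include 2 Pls3 windows that cover nearly the same bases (X:75875121-75875420 and X:75875133-75875432). Over 32851 promoters of the table the median was 7 and the first quartile 3, and 23.3% of them had fewer than the Pls3 internal window. The 2 windows at restored sites had a GC content of 46.0% and 40.3%, against 49.0 to 75.3% in the others. GGGCGG was in 10 of the other 12 windows and in neither window at a restored site, and 35.7% of all promoters hold it. The other 2 windows without it were also internal Ikbkg windows, outside restored sites (X:74429065-74429364 and X:74429431-74429730). Those had 13 and 10 CG dinucleotides and 57.3% and 49.0% GC. Absence of GGGCGG was thus not particular to restored sites. TGANTCA was in the Ikbkg window at a restored site and in 2 more Ikbkg windows, and 7.8% of all promoters hold it. The 2 motifs do not overlap each other in these windows, and a match is only a description of the letters.

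Exon counts could not tell internal from upstream starts. The Ikbkg transcript that begins inside the site had 210.5 and 405.0 counts in the WT libraries, 293.5 and 683.5 in those of line 1 and 293.5 and 579.5 in those of line 2, and the transcript from the first start had 210.0 and 404.5, 290.0 and 677.5, and 291.5 and 577.5. The counts of the 2 transcripts were nearly equal in every library, and their exons were not compared here. The same held for Pls3, where a transcript from inside the site had 809.0 and 1462.0 counts in WT and one from the first start 815.0 and 1459.0.

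In WT the 9 genes spanned a wide range of expression. Per kb of transcript, Bgn had 188 ± 24.8 CPM (SD, n = 2) and Flna 177 ± 10.3, followed by Pls3 (69.2 ± 6.14), Tbl1x (63.6 ± 2.56), G6pdx (41.3 ± 3.28), Haus7 (36.2 ± 2.73), Acsl4 (34.9 ± 1.98), Las1l (12.8 ± 0.0176) and Ikbkg (9.13 ± 1.31). The ranges over the 2 libraries overlapped between Bgn and Flna, between Pls3 and Tbl1x and between Haus7 and Acsl4, so those neighbours cannot be ordered. All 9 passed the filter on low counts.

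In the main fit, which has no term for replicate number, total RNA of the 9 genes differed little from WT in either line. None of the 9 was called in line 1 against WT by edgeR's quasi-likelihood test at an adjusted p under 0.05, where 14.3% of 12910 genes were, and none in line 2, where 3.58% were. At an unadjusted p under 0.05 the counts were 4 in line 1 (Acsl4, G6pdx, Ikbkg and Las1l), beside 28.0% of all genes, and 1 in line 2 (G6pdx), beside 14.5%. DESeq2 called 0 in each, beside 14.4% and 4.5%. The median log2 fold change of the 9 was 0.13 in line 1 and -0.03 in line 2, beside 0.01 and 0.01 over all genes tested and 0.02 and -0.02 over 415 X-linked genes. Both comparisons use the same WT libraries. With replicate number as a block, 4 of the 9 were called in line 1, where 32.4% of all genes were, and 1 in line 2, where 12.1% were; both counts lie near those shares.

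Higher levels without overlap were seen in 5 of the 9 genes in line 1 and in 4 in line 2. Among all genes tested, both line 1 libraries lay above both WT libraries in 25.4% and below them in 25.6%, and the shares for line 2 were 24.9% and 23.9%. Below WT without overlap were 1 gene in line 1 (Flna) and 2 in line 2 (Tbl1x and Acsl4). With 2 libraries a group this is a description.

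**Figure D2:**
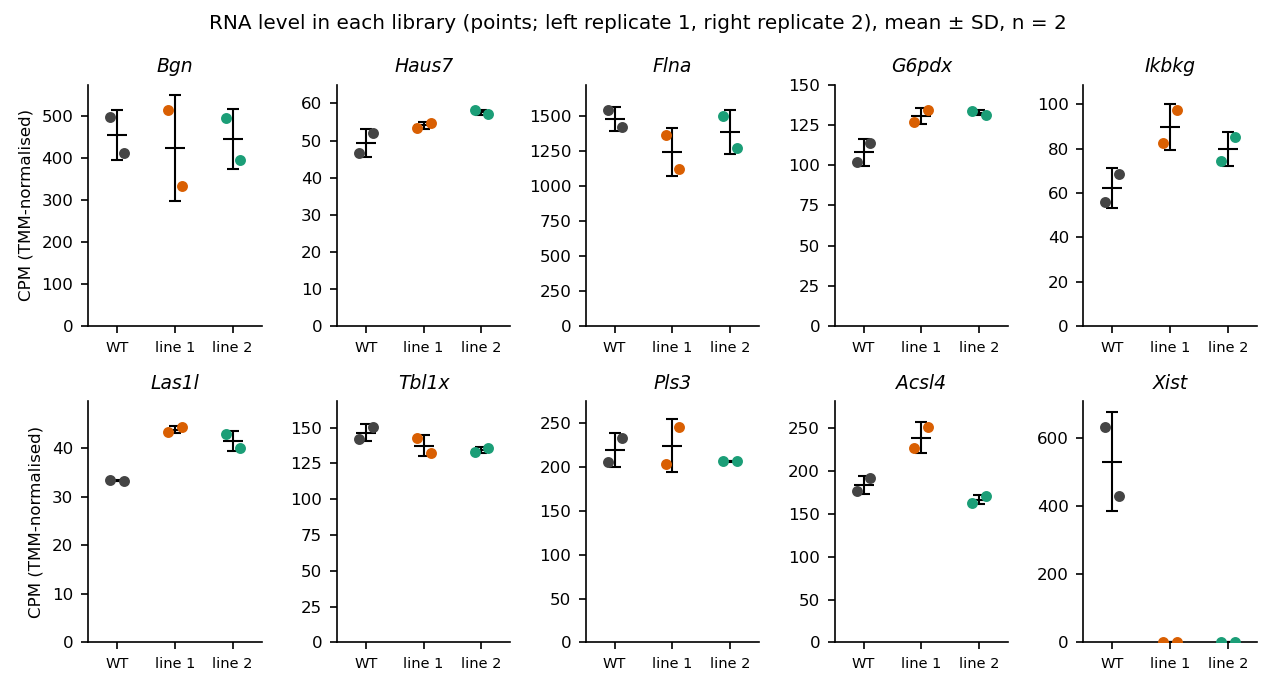
RNA level (TMM-normalised CPM, vertical axis from 0) of each of the 9 genes and Xist in WT, line 1 and line 2; points are libraries and bars are mean ± SD (n = 2). Haus7, G6pdx, Ikbkg and Las1l are above both WT libraries in all 4 libraries of the deleted lines, and Acsl4 is high in line 1 only.

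Ikbkg, which encodes NEMO, the regulatory subunit of the kinase that releases NF-kB, shares its site with G6pdx. Its level was 55.8 and 68.5 CPM in the WT libraries, 82.4 and 97.3 in those of line 1 and 74.6 and 85.4 in those of line 2. Both lines lay above WT without overlap. Line 1 against WT gave a log2 fold change of 0.53 (SE 0.16, adjusted p = 0.0876), line 2 against WT gave 0.36 (SE 0.16, adjusted p = 0.401), and with the replicate block the adjusted p-values were 0.00505 and 0.0452. G6pdx, the enzyme that opens the pentose phosphate pathway and makes NADPH, had 102 and 114 CPM in the WT libraries, 127 and 134 in those of line 1 and 134 and 131 in those of line 2. It also lay above WT without overlap in both lines, with log2 fold changes of 0.27 (SE 0.11, adjusted p = 0.178) and 0.30 (SE 0.11, adjusted p = 0.299). The longest Ikbkg transcript spans the whole G6pdx gene on the opposite strand and no label or header states that counting was strand-specific, so the reads of both genes could be mixed where exons overlap.

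Las1l, a subunit of the complex that cuts the internal spacer of precursor ribosomal RNA, had 33.3 and 33.3 CPM in the WT libraries, 43.2 and 44.4 in those of line 1 and 42.9 and 40.0 in those of line 2. All 4 libraries of the deleted lines were above WT. Line 1 against WT gave a log2 fold change of 0.40 (SE 0.14, adjusted p = 0.13), for which the block gave an adjusted p of 0.0391, and line 2 against WT gave 0.31 (SE 0.14, adjusted p = 0.401). Haus7, a subunit of augmin, which seeds microtubules inside the mitotic spindle, had 46.7 and 52.0 CPM in the WT libraries, 53.5 and 54.9 in those of line 1 and 58.1 and 57.1 in those of line 2. Its groups did not overlap either, though the gap to line 1 was small, and the log2 fold changes were 0.13 (SE 0.13, adjusted p = 0.607) and 0.22 (SE 0.13, adjusted p = 0.565).

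Acsl4, which activates long-chain fatty acids with a preference for arachidonic acid, was the 1 gene of the 9 that differed between the deleted lines. Its level was 177 and 191 CPM in the WT libraries, 227 and 251 in those of line 1 and 163 and 170 in those of line 2. Line 1 lay above WT and line 2 below it, without overlap. Line 2 minus line 1 was -0.52 on the log2 scale (SE 0.11, adjusted p = 0.034), and 12.6% of all genes were called in that comparison. Against WT it was 0.38 (SE 0.11, adjusted p = 0.083) in line 1, called with the block (adjusted p = 0.00956) and without line 1 replicate 1 (0.44, adjusted p = 0.0487), and -0.14 (SE 0.11) in line 2. The difference between lines was not called in the fit of those 2 groups alone (adjusted p = 0.092) or without line 1 replicate 2 (adjusted p = 0.0602), line 2 replicate 1 (adjusted p = 0.254) or line 2 replicate 2 (adjusted p = 0.191); over all alternatives the adjusted p ran from 0.00287 to 0.254.

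Flna, Bgn, Pls3 and Tbl1x did not lie above WT without overlap in either line, and none of them was called without the block. Flna, the actin crosslinker filamin A, had 1541 and 1419 CPM in the WT libraries, 1364 and 1124 in those of line 1 and 1498 and 1273 in those of line 2. Line 1 lay below WT without overlap, with a log2 fold change of -0.25 (SE 0.18, adjusted p = 0.451, and 0.0472 with the block). Bgn, the collagen-binding proteoglycan biglycan, had 497 and 412, 513 and 334, and 494 and 394 CPM in the same order, and its replicates differed more than its groups (log2 fold changes -0.10 and -0.03, SE 0.24 each). Pls3, the actin bundler plastin 3, had 206 and 233, 203 and 246, and 206 and 207 CPM, and the groups of this gene, with 13 restored sites in its body, overlapped (log2 fold changes 0.03 and -0.09, SE 0.14 each). Tbl1x, a subunit of the NCoR/SMRT corepressor complex, had 142 and 151, 142 and 132, and 133 and 136 CPM, and its log2 fold changes were -0.09 and -0.12 (SE 0.11 each).

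**Figure D3:**
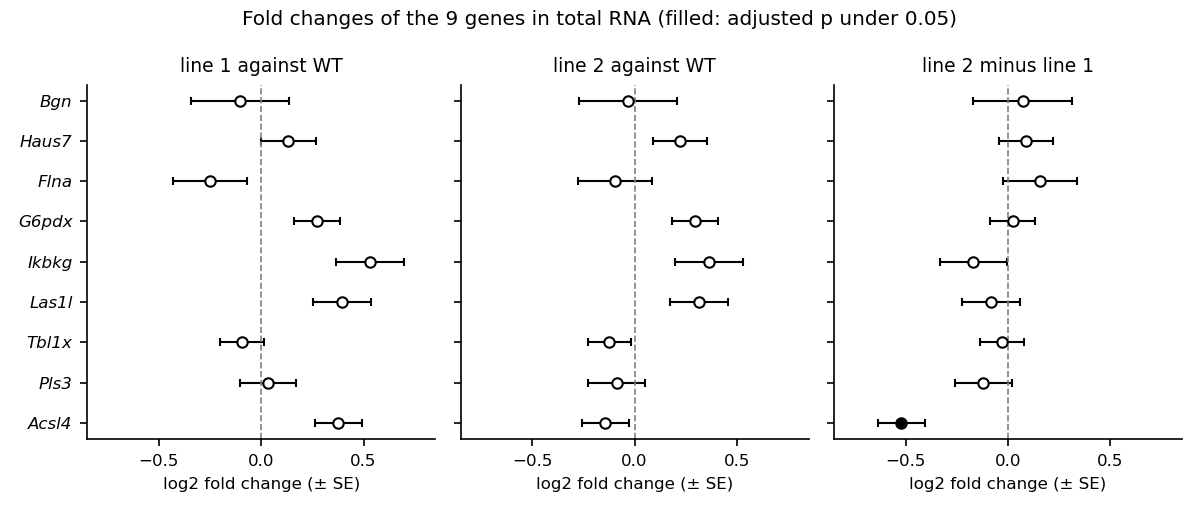
Log2 fold change in total RNA (horizontal axis, ± SE) of the 9 genes for line 1 against WT, line 2 against WT and line 2 minus line 1; filled points have an adjusted p under 0.05. The only filled point is Acsl4 in line 2 minus line 1, at -0.52.

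Allele reads were listed for 7 of the 9 genes; Ikbkg and Pls3 were not in the allele table. In the authors' deposited table all 7 were classed Monoallelic in each of 4 class calls, as were 186 of its 205 genes. The mus share was higher in line 1 than in WT in all 7, with a median change of 2.59 percentage points, beside 0 over the 205 genes, of which 36.6% were higher. In line 2 the share was higher in 5 of the 7, with a median change of 1.25 points, beside 0 and 34.1%. No gene of the 7 was called in allele balance in line 1, in line 2 or between the lines (edgeR's quasi-likelihood test on mus and cas counts, adjusted p = 1 for each; 0 at an unadjusted p under 0.05, and 0 by DESeq2). Of the 205 genes, 1.46% were called in line 1, 0.0% in line 2 and 0.976% between the lines, and 1.95%, 1.46% and 2.44% had an unadjusted p under 0.05.

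**Figure D4:**
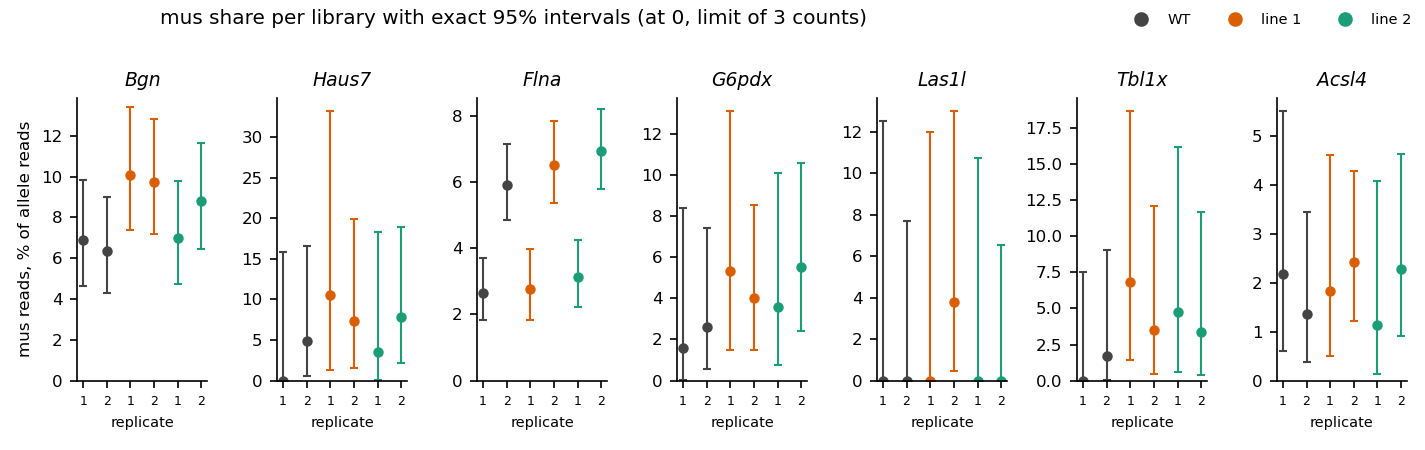
Share of mus reads among the allele reads (vertical axis, percent, with a scale of its own for each gene) in each library of WT, line 1 and line 2; bars are exact 95% binomial intervals, or reach up to the limit of 3 counts where the share is 0, and cover counting error only. Bgn is near 10% in both line 1 libraries and under 7% in both WT libraries, and Flna separates by replicate number in every group.

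Both libraries of line 1 lay above both WT libraries in 4 of the 7 genes (Bgn, Haus7, G6pdx and Tbl1x), where 8.29% of the 205 genes did so and 9.27% lay below. For line 2 it was 3 of 7 (Bgn, G6pdx and Tbl1x), where 8.29% lay above and 10.2% below. None of the 7 lay below WT in either line. Genes without mus reads, as Las1l in WT and line 2, count among the 205 and cannot separate. The genes were chosen with results of these libraries known and the counts are small in all but Bgn, Flna and Acsl4.

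Bgn had the most mus reads after Flna. In WT 28 of 405 reads (6.91%, exact 95% interval 4.64 to 9.84) and 29 of 456 (6.36%, 4.30 to 9.01) were mus. In line 1 they were 42 of 416 (10.1%, 7.37 to 13.4) and 45 of 462 (9.74%, 7.19 to 12.8). In line 2 they were 30 of 430 (6.98%, 4.76 to 9.81) and 44 of 500 (8.80%, 6.47 to 11.6). Both line 1 libraries were above all others, while each interval overlapped those of WT. Pooled, 9.91% in line 1 against 6.62% in WT gave a mus to cas ratio 1.55 times that of WT (exact 95% counting interval 1.08 to 2.24), and the fit over replicates gave a log2 change of 0.63 (SE 0.37).

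G6pdx had 1 of 64 and 3 of 115 mus reads in WT, 4 of 75 and 6 of 149 in line 1, and 3 of 84 and 8 of 145 in line 2. Its share was 1.56 and 2.61% in WT and between 3.57 and 5.52% in the 4 libraries of the deleted lines. The pooled ratio to WT was 2.04 in line 1 (exact counting interval 0.576 to 9.07) and 2.20 in line 2 (0.639 to 9.65), and both intervals include 1. Tbl1x had 0 of 40 and 1 of 59 mus reads in WT, 3 of 44 and 2 of 57 in line 1, and 2 of 42 and 2 of 59 in line 2; the 0 of 40 allows a share of up to 7.50%. Its ratios to WT, 5.07 (0.553 to 244) and 4.02 (0.388 to 201), rest on 1 mus read in WT. The fitted log2 changes of 2.11 and 1.79 became 4.48 and 4.16 without WT replicate 2, which left WT at 0 of 40.

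Haus7, with 5 restored sites upstream, had 0 of 19 and 2 of 41 mus reads in WT, 2 of 19 and 3 of 41 in line 1, and 1 of 28 and 4 of 51 in line 2. The 0 of 19 allows a share of up to 15.8%, and the pooled ratio to WT was 2.62 in line 1 (exact counting interval 0.408 to 28.6) and 1.95 in line 2 (0.306 to 21.2). The fitted log2 changes of 1.31 and 0.88 became 4.21 and 3.78 without WT replicate 2, which left WT at 0 of 19. In line 2 the value was 0.07 without line 2 replicate 2. Las1l had no mus read in WT (0 of 63, which allows up to 4.76%), 2 of 78 in line 1 and 0 of 74 in line 2, and no fold is given.

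Acsl4, whose total RNA was high in line 1, had 4 of 183 and 4 of 295 mus reads in WT, 4 of 219 and 11 of 456 in line 1, and 2 of 175 and 7 of 308 in line 2. The pooled shares were 1.67%, 2.22% and 1.86%, and the ratio of line 1 to WT was 1.33 (exact counting interval 0.526 to 3.67). Flna had the most allele reads, with 33 of 1244 and 102 of 1726 mus in WT, 28 of 1015 and 106 of 1627 in line 1, and 39 of 1253 and 123 of 1775 in line 2. Its share was 2.65, 2.76 and 3.11% in the libraries numbered 1 and 5.91, 6.52 and 6.93% in those numbered 2. Replicate number, which also orders depth, thus separated Flna in all 3 groups, and the groups overlapped. The mus share over all 205 genes was also higher in the libraries numbered 2 of each group. It was 5.46, 6.19 and 5.67% in those numbered 1 and 6.09, 7.25 and 6.42% in those numbered 2. The cause was not tested. Among libraries of the same number the Flna share was lowest in WT and highest in line 2 both times, and the replicate block gave Flna log2 changes of 0.13 and 0.24 against WT (adjusted p = 1 each).

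**Figure D5:**
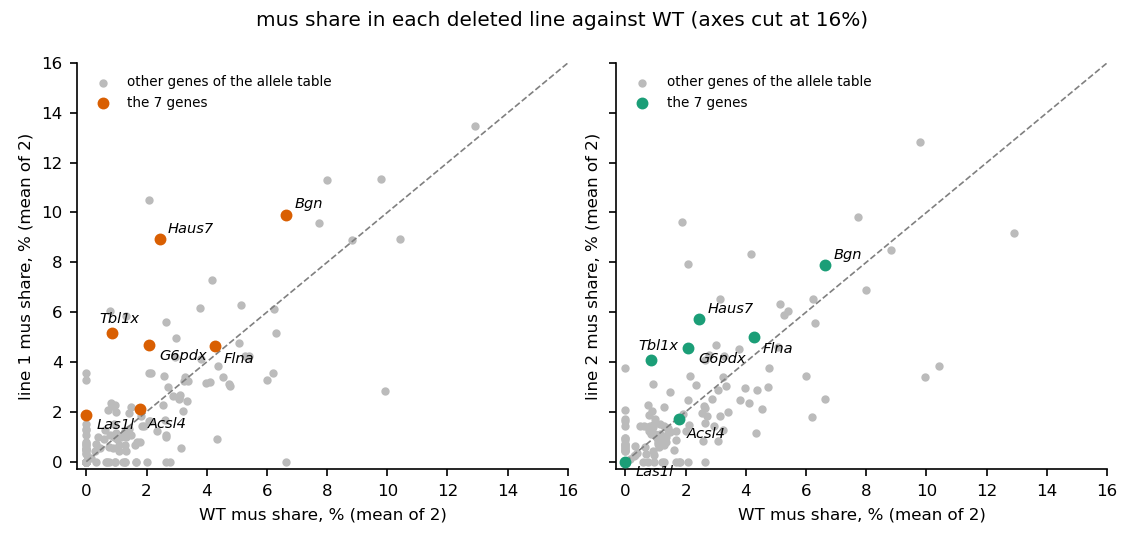
Mean mus share of 2 libraries in line 1 (left) or line 2 (right) against WT, both axes in percent and limited to 16%; grey points are other genes of the allele table, of which 19 lie beyond the axes in each panel, and the dashed line marks equal shares. All 7 genes lie above the line in line 1, and 5 of 7 in line 2.

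By the mean absolute difference in mus share over the 6 libraries, the genes most like Bgn were Ndufb11 (1.25 points) and Ctps2 (1.85), and those most like Flna were Gpkow (0.817) and Idh3g (1.39). Pola1 (0.785) was closest to G6pdx, with Tbl1x next (1.30), and Enox2 (1.02) was closest to Tbl1x. Srpx2 (1.71) was nearest to Haus7, Huwe1 (0.604) and Gripap1 (0.607) to Acsl4, and Nhsl2 (0.212) was close to Las1l, for which a small difference means little because most shares are 0.

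The partners of the 9 genes in their complexes and pathways were read from 8 lists, on which 58 genes other than the 9 were tested. In line 1, 2 rose and 5 fell (beside 14.3% of all genes called), and in line 2, 1 fell (beside 3.58%), with median log2 fold changes of -0.01 and 0.02. The changes lay mostly with the small leucine-rich proteoglycans, the matrix family of Bgn: of 9 tested, 4 fell and 1 rose in line 1, with a list median of -1.46. Ogn fell from 89.9 and 140 CPM in WT to 25.7 and 14.5 (log2 fold change -2.56, SE 0.32, adjusted p = 0.00464) and Fmod from 11.4 and 7.04 to 1.08 and 0.409 (-3.75, SE 0.52, adjusted p = 0.00657). Dcn, decorin, which was chosen for naming after its value was seen, rose from 61.9 and 26.9 CPM to 243 and 156. None of the family was called in line 2.

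H6pd, the enzyme that does the work of G6pdx inside the endoplasmic reticulum, rose in line 1 (log2 fold change 0.67, SE 0.14, adjusted p = 0.0251) and Taldo1 was not called. Acsl6 fell in both lines, from 4.04 and 5.44 CPM to 0.270 and 0.409 in line 1 and 0.485 and 0.423 in line 2 (adjusted p = 0.00394 and 0.0157), while Acsl3 had a log2 fold change of 0.56 in line 1 (SE 0.19, adjusted p = 0.11). No gene was called in either line among 8 augmin subunits, 7 actin crosslinkers, 16 genes of NF-kB activation, 7 of the list of Las1l and its partners and 6 of the NCoR/SMRT complex, the 9 genes included. Leaving the 9 genes aside, the lowest adjusted p-values in either line were 0.138 for Haus4, 0.0943 for Actn1, 0.232 for Nfkbib, 0.567 for Mdn1 and 0.559 for Hdac3.

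Among the nearest tested genes on each side, 12 were not of the 9, and in line 1 against WT 1 was higher and 1 lower, while none was called in line 2. The higher was Atp2b3, a plasma membrane calcium pump whose body lies 7.2 kb past the end of Bgn and which itself met the site rule, with 4 restored sites. It had 2 and 2 counts in the WT libraries, 8 and 46 in those of line 1 and 2 and 1 in those of line 2, so the call (log2 fold change 3.43, SE 0.75, adjusted p = 0.031) rests on few reads and mostly on line 1 replicate 2. The lower was Tmem164, 291 kb upstream of the Acsl4 start, with 193 and 189 CPM in the WT libraries, 139 and 139 in those of line 1 and 200 and 201 in those of line 2 (line 1 against WT -0.46, SE 0.10, adjusted p = 0.03).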

How the data were processed

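RNA libraries were 50 bp paired ends of ribosome-depleted RNA from 2 biological replicates a group, per the labels' protocols. Exon values are expected counts per RefSeq transcript, made by the authors with HOMER analyzeRNA.pl without normalization, per the file headers. Allele values are deposited as estimated counts per allele, where 0.5 is the lowest value and means 0, beside the deposited fraction of mus reads. The site lists hold coordinates with no score. For RNA-seq the submitters' processing notes list bedtools 2.25.0, HOMER, SAMtools, TopHat2 and Trim Galore 0.4.1, and, for the chromatin assays, Bowtie2 2.2.7, Novoalign 3.00.02, MACS2 and edgeR, with mm10. The way classes were called is not stated there.

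Because whole counts had been planned for, exon values were rounded, with 0.5 up, and allele values with 0.5 down. The transcript with the highest total stood for each of 24470 symbols, and 12910 passed filterByExpr. All 6 libraries entered 1 fit in edgeR 4.0.16 (R 4.3.3) with TMM scaling and 3 residual degrees of freedom. Allele balance was fitted by edgeR on mus and cas counts of 205 genes (at least 10 allele reads in every library), with a term per library. P-values were adjusted by Benjamini-Hochberg over all genes at 0.05. Intervals are exact (Clopper-Pearson, or Fisher's for ratios, 95%) and, like the limit of 3 counts behind a 0, cover counting error only. The procedures were also run on simulated data, and the outcome is not used as support here. Allele changes were simulated only in genes with many allele reads in every library, so Haus7, Las1l and Tbl1x were not covered.

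Differences between replicates 1 and 2 correlated between groups (Pearson 0.540, 0.594 and 0.529 in total RNA, 0.374, 0.398 and 0.349 in allele balance). The main fits of total RNA and allele balance hold no term for replicate number. Fits with replicate number as a block were run as alternatives. The pairing comes from the data, and the labels name no shared day or batch. DESeq2 1.42.0, other scalings, filters, rounding and the removal of each library were tried.

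Named genes were Xist, Smarca4, the 9 genes, up to 2 genes a pathway list by adjusted p, the 2 genes closest in mus share, and the nearest tested neighbours, of which those called are named. A gene close to Las1l in mus share is not reported here. The 9 genes and all lists were chosen with earlier results of these data known. ATAC-seq and ChIP-seq tracks and siRNA samples were not used here.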

Additional observations from a re-analysis of the deposited data

Results flagged for a closer look

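Acsl4 was flagged because the 2 deleted lines differed in total RNA: line 2 minus line 1 was -0.52 on the log2 scale (SE 0.11, adjusted p = 0.034, edgeR's quasi-likelihood test), with both line 1 libraries above and both line 2 libraries below WT. Its mus share did not separate the lines in the same way, at 1.83 and 2.41% in line 1 and 1.14 and 2.27% in line 2.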

How the results depend on the processing

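With replicate number as a block, 4 of the 9 genes were called in line 1 against WT (Acsl4, Flna, Ikbkg and Las1l) and 1 in line 2 (Ikbkg), against 0 and 0 without it, while calls over all genes rose from 14.3 to 32.4% and from 3.58 to 12.1%, and the block changed no other call on the 9 genes. Leaving out 1 library gave 0 to 1 calls in line 1, 0 in line 2 and 0 to 1 in line 2 minus line 1, where the 2 compared groups alone gave 0 against 1. No alternative called a gene of the 7 in allele balance, and all 9 genes kept a restored site at 2 kb, 50 kb or 10 kb of a start only, with 35, 82 and 32 X-linked genes meeting the rule.

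Leaving out 1 library turned the sign of 26 log2 values, all of them not called. In total RNA, Bgn ran from -0.45 to 0.17 (line 1), -0.21 to 0.12 (line 2) and -0.21 to 0.42 (line 2 minus line 1), Pls3 from -0.12 to 0.15, -0.17 to 0.01 and -0.24 to 0.03, Flna from -0.22 to 0.02 in line 2, and G6pdx from -0.01 to 0.07 and Tbl1x from -0.08 to 0.03 between the lines. In allele balance, Flna ran from -0.61 to 0.78, -0.42 to 0.89 and -0.54 to 0.84, Acsl4 from -0.54 to 0.44 in line 2 and -0.92 to 0.05 between the lines, G6pdx from -0.33 to 0.31 and Tbl1x from -0.78 to 0.16 between the lines. With 0.5 allele reads rounded up, Haus7 was -0.04 in line 2 and Tbl1x 0.0 between the lines. The cause was not tested. Over all genes, calls ran from 718 to 4182 in line 1, 23 to 1568 in line 2 and 600 to 3506 between the lines, and leaving out 1 library gave shares of higher calls of 36.2 to 52.9% in line 1 (47.2% with all), 42.9 to 60.9% in line 2 (48.3%) and 46.2 to 67.7% between the lines (54.4%).

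Allele reads were few in WT for Haus7 (60 over both libraries), Las1l (63) and Tbl1x (99). Leaving out 1 library let the allele log2 change of Haus7 range from 0.8 to 4.21 in line 1 and 0.07 to 3.78 in line 2, and that of Tbl1x from 1.47 to 4.48 and 1.16 to 4.16. Flna had 2970 such reads, and its values differed by replicate number.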

Other observations

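The other 32 X-linked genes that met the site rule give a view of genes beside restored sites outside the 9. They are not an unselected set, because the 9 were taken out of the genes meeting the rule with earlier results of these data known. Of the 32, 19 were tested in total RNA, and in line 1 against WT 5 were higher and 2 lower, beside 14.3% of all genes called, with a median log2 fold change of 0.09. At an unadjusted p under 0.05 they were 11 of 19 (57.9%), beside 28.0% of all genes. In line 2, 0 were higher and 1 lower, beside 3.58%, and 2 had an unadjusted p under 0.05 (10.5%, beside 14.5%), with a median of 0.00. Allele reads were listed for 8 of the 32: the mus share was higher than in WT in 3 of 8 in line 1 and in 2 of 8 in line 2, with median changes of -0.18 and -0.62 percentage points, and 1 was called, higher in line 1 (beside 1.46% of the 205 genes). These genes share sites and neighbours with each other and with the 9, so no test was made over them.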
